A study of Mus musculus with 15 samples.

Results

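The CC chemokines *Ccl2*, *Ccl7*, *Ccl8*, *Ccl9*, *Ccl11*, *Ccl12*, *Ccl17* and *Ccl20* were followed in cultured mouse embryonic fibroblasts (MEFs) exposed to inflammatory or fibrotic cytokines. They were picked as a set, with earlier results of these data known, as chemokines known for calling monocytes, eosinophils and other leukocytes into tissue. They are 8 of the 23462 gene names on the array, and each was read by 1 probe printed at 1 spot. The cells were Balb/c 3T3 MEFs, bought by the study as clone A31, so that every value comes from a single established line grown in medium with serum. RNA of 15 cultures was hybridised to 15 one-colour arrays, 3 in each of 5 groups. The groups were untreated control MEFs, MEFs with TNFα at 10 ng/ml, MEFs with TGFß1 at 5 ng/ml, MEFs with IL-1β at 1 ng/ml, and MEFs with IL-6 at 20 ng/ml together with its soluble receptor sIL-6Rα at 25 ng/ml, called IL-6/sIL-6Rα below. Stimulation lasted 24 h for the TNFα and TGFß1 arrays, as the study describes them, while the labels name 24 or 72 h for all cultures and the IL-1β and IL-6/sIL-6Rα arrays are described only there. Arrays are called by their group and by the number that opens their label, as in control 6 or TNFα 9.

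Chemokines are small secreted proteins that bind G protein-coupled receptors on leukocytes and direct their movement along a gradient. *Ccl2*, *Ccl7*, *Ccl8* and *Ccl12* encode monocyte chemoattractant proteins, of which CCL2, CCL7 and CCL12 act through the receptor CCR2 that releases monocytes from the bone marrow. *Ccl9* encodes a ligand of CCR1, and *Ccl11* encodes eotaxin, which acts on CCR3 of eosinophils. *Ccl17* encodes a ligand of CCR4 on T helper cells, and *Ccl20* the ligand of CCR6 on dendritic and T cells, so that these last genes serve other leukocytes than the monocyte and the eosinophil. In fibroblasts, TNFα and IL-1β act through the transcription factor NF-κB, IL-6 with its soluble receptor through STAT3, and TGFß1 through SMAD proteins.

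In the order of genes along the mouse genome, *Ccl2*, *Ccl7*, *Ccl11*, *Ccl12* and *Ccl8* stand side by side on chromosome 11 with 0 protein-coding genes between them. *Ccl9* lies on the same chromosome, 27 protein-coding genes after *Ccl8*, while *Ccl17* is on chromosome 8 and *Ccl20* on chromosome 1. RefSeq promoter sequence was at hand for 5 of the 8 genes. Those of *Ccl20*, *Ccl9* and *Ccl8* are shown, the 250 bases before the start site on GRCm38.p6, because *Ccl20* and *Ccl8* had the largest differences under TNFα and *Ccl9* moved in opposite directions under TNFα and TGFß1. Capitals mark the match to the NF-κB consensus.
Ccl20 (chr1:83116516-83116765, plus strand): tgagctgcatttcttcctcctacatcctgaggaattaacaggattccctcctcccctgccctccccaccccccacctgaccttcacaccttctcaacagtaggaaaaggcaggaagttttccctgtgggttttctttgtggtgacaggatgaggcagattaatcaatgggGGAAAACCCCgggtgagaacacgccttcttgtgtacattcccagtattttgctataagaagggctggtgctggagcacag
Ccl9 (chr11:83578637-83578886, minus strand): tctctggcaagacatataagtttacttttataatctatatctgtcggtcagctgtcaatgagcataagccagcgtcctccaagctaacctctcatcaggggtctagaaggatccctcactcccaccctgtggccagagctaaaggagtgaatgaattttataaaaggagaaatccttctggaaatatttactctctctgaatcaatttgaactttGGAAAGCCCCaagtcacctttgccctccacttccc
Ccl8 (chr11:82114935-82115184, plus strand): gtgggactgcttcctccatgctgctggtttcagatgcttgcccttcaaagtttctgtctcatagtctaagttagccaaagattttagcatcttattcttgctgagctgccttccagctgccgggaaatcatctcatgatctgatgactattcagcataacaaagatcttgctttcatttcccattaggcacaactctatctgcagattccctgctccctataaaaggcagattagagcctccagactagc
The *Ccl20* window held 1 match, GGAAAACCCC as read on the plus strand, 80 to 71 bases before the start. The *Ccl9* window held 1 match, GGAAAGCCCC, 35 to 26 bases before the start, and also 1 match to the AP-1 motif TGANTCA, the stretch tgaatca 53 to 47 bases before the start. The *Ccl8* window held none of the motifs searched, which were these and the interferon-stimulated element, each on both strands. The windows of *Ccl12* and *Ccl17* held none of them either. The *Ccl17* window, chr8:94810203-94810452, lay inside the span given for the gene, chr8:94809380-94812038, and not before it. Among 32851 promoter windows of the same length, 3.9% held the NF-κB consensus, 6.75% the AP-1 motif and 2.98% the interferon-stimulated element. A match describes the letters of a window and says nothing of whether a factor was bound.

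A level is given below as the log2 of the spot's processed brightness minus the 75th percentile of its array, so that 0 is the brightness at that percentile and 1 unit is 2-fold. Each probe has its own response, and levels are therefore compared between groups and not between genes. The arrays had 48.3% to 54.8% of their probes well above background and no saturated spot. All 10 fibroblast markers were well above background on all 15 arrays, and some of them moved with the groups. With TNFα, the collagen genes *Col1a1*, *Col1a2* and *Col3a1* fell and *Dcn* rose, and with TGFß1 *Pdgfra* and *Dcn* fell and *Col1a1* and *Pdgfrb* rose. Of 9 leukocyte and macrophage markers, *Ptprc*, *Adgre1*, *Lyz2* and *Tyrobp* were on none of the arrays and the other 5 were on all of them. The summed brightness of the 9, relative to the 75th percentile, ran from 10.8 to 22.5 in controls and from 12.8 to 23.9 with TNFα, and it overlapped in the other groups too. Of these markers, *Cd14* was called higher with TNFα (0.79 log2 units, q = 0.00301) and *Fcer1g* with TGFß1 (1.45, q = 0.00368), and their part in the results was not tested. Of 5 endothelial markers, *Pecam1* was on all arrays and the other 4 on none. Of 5 epithelial markers none was on all arrays, and all but *Krt18*, which was on 10, were at background on most arrays. *Krt8* was called higher with TGFß1 (q = 0.0176). However, *Krt8* was on only 4 of the 15 arrays, all TGFß1 arrays among them and no control array. It entered the tests only through the TGFß1 group, so that its call is partly fixed by the filter and no size is given. The summed epithelial brightness ran from 0.110 to 0.237 in controls, from 0.0699 to 0.106 with TNFα and from 0.244 to 0.627 with TGFß1, and its part in the results was not tested either. A gene was called changed by limma at a q-value under 0.05 and a fold of at least 1.5. The q-values are adjusted over the 29333 probes tested and measure the spread between these cultures. The study describes control, TNFα and TGFß1 cultures as biological replicas of independent experiments, and no source describes those of the other groups so. In such bulk RNA, more cells making a transcript and more RNA per cell cannot be told apart.

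*Ccl2*, *Ccl7*, *Ccl8*, *Ccl9*, *Ccl17* and *Ccl20* were well above background on all 15 arrays. *Ccl11* was so on 7, namely all IL-1β arrays, control 6, TNFα 9, IL-6 8 and IL-6 13, and it entered the tests only through the IL-1β group. *Ccl12* was so on 2, TNFα 9 and IL-6 8, and was not tested. Of the 8 genes, 7 were thus tested. The processed brightness of *Ccl2* ran from 7272 to 273910 and that of *Ccl12* from 2.72 to 24.2.

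**Figure D1:**
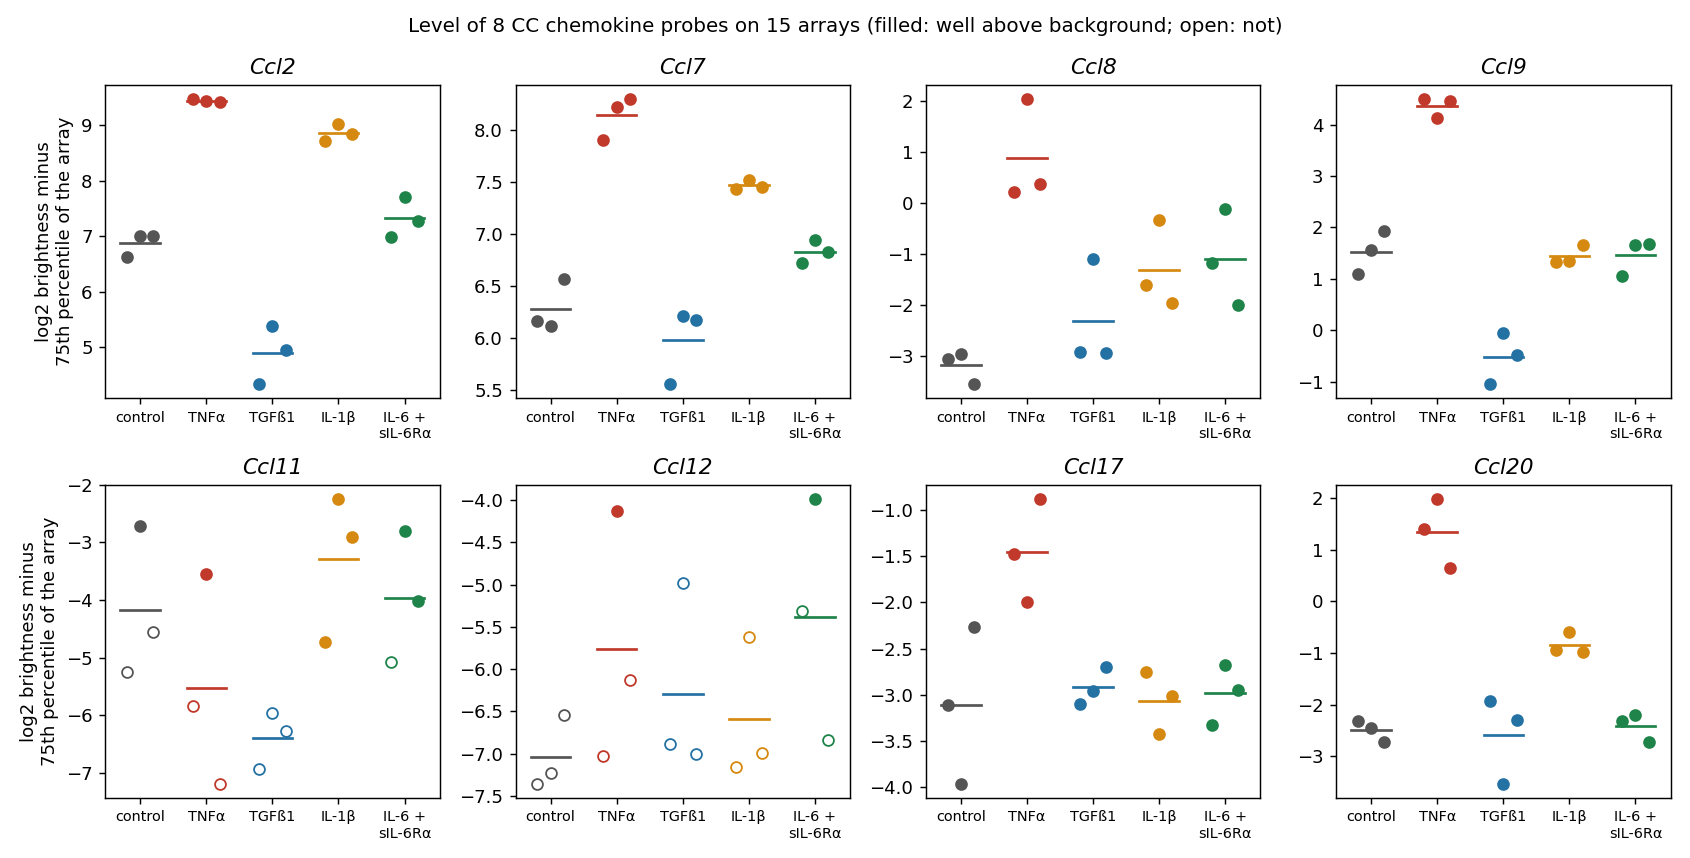
Level of each chemokine (log2 brightness minus the 75th percentile of the array) on each of the 15 arrays, by group, with open points for spots not well above background and a bar at the mean of the 3 arrays. The TNFα arrays lie above all control arrays for *Ccl2*, *Ccl7*, *Ccl8*, *Ccl9*, *Ccl17* and *Ccl20*. The TGFß1 arrays lie below all control arrays for *Ccl2* and *Ccl9*, and for *Ccl11*, where no TGFß1 spot was well above background. For *Ccl8* the TGFß1 arrays lie above all control arrays, 2 of them only narrowly.

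The first question was which of these chemokines MEFs expressed more or less after TNFα. With TNFα, 6 of the 7 tested chemokines rose and 0 fell, where 4.09% of all tested probes were called higher and 5.96% lower. The median difference of the 7 was 2.55 log2 units, against 0.04 over all tested probes. The rises ran from 3.17-fold for *Ccl17* to 16.7-fold for *Ccl8*, and for each of the 6 the lowest TNFα array stood above the highest control array, as it did for 13.1% of the tested probes. With normexp background correction the calls remained but the rises of the dimmer genes were smaller, 2.79 log2 units for *Ccl8*, 2.96 for *Ccl20* and 1.00 for *Ccl17*.

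*Ccl2*, the main attractant of blood monocytes, had control levels of 6.62, 7.00 and 7.01 and TNFα levels of 9.47, 9.42 and 9.41. The TNFα arrays were within 0.06 units of each other, and the rise was 2.55 ± 0.24 log2 units (SE, n = 3 per group), or 5.88-fold, with q = 2.93e-05. *Ccl7*, a further CCR2 ligand and the neighbour of *Ccl2*, had control levels of 6.16, 6.12 and 6.56 and TNFα levels of 7.90, 8.22 and 8.29. Its rise was smaller, 1.86 ± 0.18 log2 units or 3.62-fold (q = 4.18e-05). *Ccl8*, the last gene of the row on chromosome 11, had control levels of -3.06, -2.97 and -3.55 and TNFα levels of 0.20, 2.03 and 0.37. TNFα 9 stood apart from the other 2 TNFα arrays, yet all of them were far above the controls, and the rise was 4.06 ± 0.65 log2 units or 16.7-fold (q = 0.00141).

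*Ccl9*, the CCR1 ligand, had control levels of 1.09, 1.56 and 1.92 and TNFα levels of 4.50, 4.13 and 4.45. It rose 7.14-fold, a difference of 2.84 ± 0.27 log2 units with q = 3.40e-05. *Ccl20*, the CCR6 ligand whose promoter is printed above, had control levels of -2.31, -2.45 and -2.72 and TNFα levels of 1.39, 1.98 and 0.65. It rose 14.2-fold, by 3.83 ± 0.38 log2 units (q = 5.14e-05), and its difference was 3.16 within slide 1 and 4.14 within slide 2. Slide 1 held only TNFα 14 of the TNFα arrays, and slide 2 only control 6 of the controls. *Ccl17*, the CCR4 ligand, had control levels of -3.11, -3.96 and -2.27 and TNFα levels of -1.48, -2.00 and -0.88. Its groups did not overlap, but its control arrays were more widely spread than those of *Ccl2*, *Ccl7* or *Ccl20*. The rise was 1.66 ± 0.38 log2 units or 3.17-fold with q = 0.0127, and without TNFα 14 it was 1.38 with q = 0.0523.

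*Ccl11*, the eotaxin gene, had control levels of -5.24, -2.72 and -4.55 and TNFα levels of -5.83, -3.54 and -7.18. Only control 6 and TNFα 9 were well above background, the groups overlapped, and the difference of -1.34 log2 units was not called (q = 0.414). In a model with the slide and the set of label numbers described below it was called lower, as were 7.74% of tested probes, but 4 of these 6 spots were at background and no size is given. *Ccl12* had control levels of -7.35, -7.23 and -6.54 and TNFα levels of -7.02, -4.13 and -6.13, of which only TNFα 9 was well above background.

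**Figure D2:**
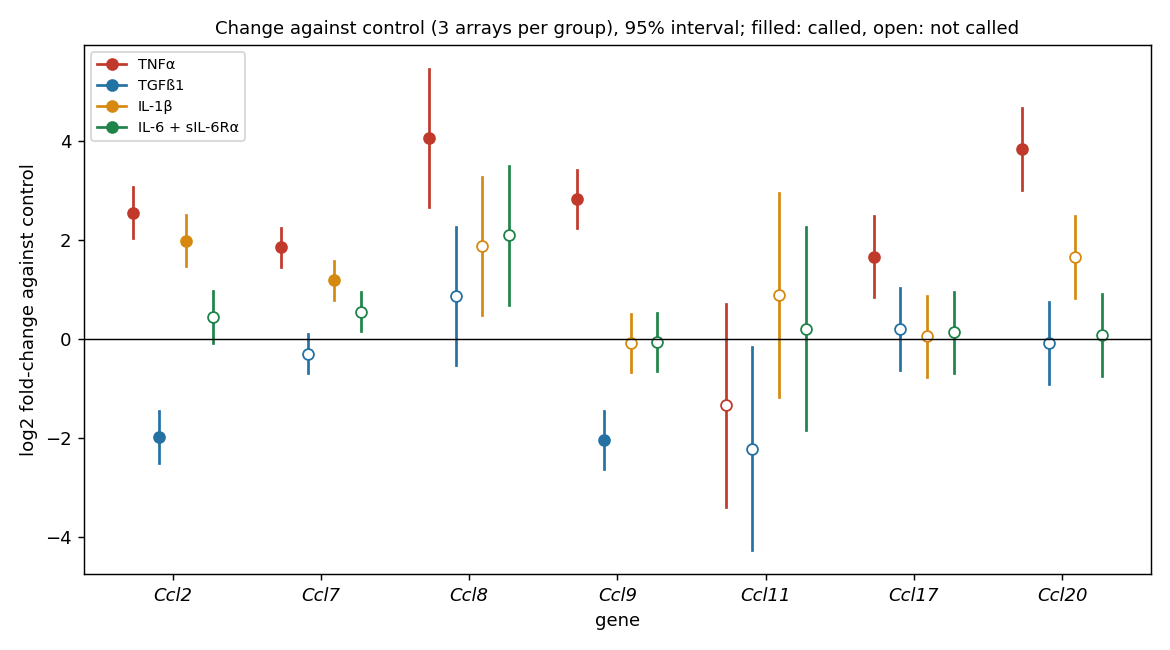
Difference in level from control (log2 units, with 95% confidence intervals of the limma fit of 15 arrays) of the 7 tested chemokines under each of the 4 treatments, with filled points for called changes. With TNFα 6 points are called higher, with TGFß1 2 are called lower, with IL-1β 2 are called higher, and with IL-6/sIL-6Rα 0 are called.

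The second question was how the same genes stood after TGFß1, the fibrotic stimulus. With TGFß1, 2 of the 7 tested chemokines fell and 0 rose, where 10.4% of tested probes were called lower and 7.51% higher. The median difference was -0.30 log2 units, against 0.07 over all tested probes. *Ccl2* had TGFß1 levels of 4.34, 5.38 and 4.95, all below its lowest control of 6.62, a separation seen for 18.9% of tested probes. It fell by 1.98 on the log2 scale, 3.96-fold, with q = 0.000131. *Ccl9* had TGFß1 levels of -1.04, -0.05 and -0.49, all below its lowest control of 1.09. It fell by 2.05 on the log2 scale, 4.14-fold, with q = 0.000228. Both falls were present within each slide, with differences of -1.43 and -2.36 for *Ccl2* and of -1.56 and -2.32 for *Ccl9*. Each of these values rests on 1 array on one side, TGFß1 7 on slide 1 and control 6 on slide 2.

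*Ccl7*, the neighbour of *Ccl2*, had TGFß1 levels of 5.56, 6.22 and 6.17, which overlapped its controls, and its difference of -0.30 log2 units was not called (95% CI -0.69 to 0.10, q = 0.261). *Ccl17* and *Ccl20* differed by 0.20 and -0.09 log2 units from control, with q = 0.741 and q = 0.890. *Ccl8* had TGFß1 levels of -2.92, -1.11 and -2.94, and its difference of 0.87 was not called (q = 0.361). The difference rested on TGFß1 7, without which it was 0.26. Within slide 1, which held TGFß1 7, it was 2.19, and within slide 2 it was 0.04. *Ccl11* had TGFß1 levels of -6.93, -5.96 and -6.28, with no TGFß1 array and only control 6 well above background. No fold is given for it, and it was not called (q = 0.111).

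The third question was how IL-1β and IL-6/sIL-6Rα acted on these genes. With IL-1β, 2 of the 7 rose and 0 fell, where 0.228% of tested probes were called higher and 0.00341% lower. Their median difference was 1.19 log2 units, against 0.00 over all tested probes. *Ccl2* had IL-1β levels of 8.72, 9.02 and 8.85, and rose 3.96-fold, by 1.98 ± 0.24 log2 units (q = 0.00299). *Ccl7* had IL-1β levels of 7.43, 7.51 and 7.45, within 0.08 units of each other and all above the controls. It rose 2.27-fold, by 1.19 ± 0.18 log2 units (q = 0.0164). The *Ccl7* call was lost when control 1, control 6, IL-1β 5, IL-1β 10 or IL-1β 15 was left out, with q between 0.0687 and 0.0870 and a difference of 1.10 to 1.20 log2 units.

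*Ccl20* had IL-1β levels of -0.94, -0.60 and -0.98, all above its highest control of -2.31. Its difference of 1.65 ± 0.38 log2 units, 3.15-fold, was not called (q = 0.174). *Ccl8* had IL-1β levels of -1.61, -0.35 and -1.98, also all above the controls, and its difference of 1.88 ± 0.65 was not called (q = 0.830). For all IL-1β arrays to stand above all controls was the case for 3.15% of tested probes and for 4 of the 8 chemokines. *Ccl9* and *Ccl17*, which rose with TNFα, differed from control by -0.08 and 0.05 log2 units under IL-1β, with 95% CIs of -0.66 to 0.51 and -0.77 to 0.88. *Ccl11* had IL-1β levels of -4.72, -2.24 and -2.90, which overlapped its controls.

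With IL-6/sIL-6Rα, 0 of the 7 were called by limma, where 0.058% of tested probes were called higher and 0% lower. At an unadjusted p under 0.05 the count was 2, *Ccl7* and *Ccl8*, both higher, where 1.88% of tested probes were higher at that threshold. *Ccl7* had IL-6/sIL-6Rα levels of 6.72, 6.94 and 6.83, all above its highest control of 6.56, and a difference of 0.55 log2 units (q = 0.896). Such a separation upward was seen for 2.57% of tested probes. In the model with the slide and the set of label numbers described below, *Ccl7* had q = 0.0285. It was not called there either, since its difference of 1.46-fold was under the 1.5-fold cut. *Ccl8* had IL-6/sIL-6Rα levels of -1.17, -0.13 and -2.00, all above its highest control of -2.97, and a difference of 2.09 ± 0.65 log2 units, 4.26-fold (q = 0.798). *Ccl2* had IL-6/sIL-6Rα levels of 6.98, 7.70 and 7.28 and a difference of 0.44 (95% CI -0.08 to 0.96). *Ccl9*, *Ccl17* and *Ccl20* differed from control by -0.06, 0.13 and 0.08 log2 units.

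The numbers that open the labels run from 1 to 15, and the sets 1 to 5, 6 to 10 and 11 to 15 each hold 1 array of every group. The labels do not say what a set is. For *Ccl8* and *Ccl11* the array from the set 6 to 10 was the highest of its group in 5 of 5 groups, as it was for 4.05% of tested probes. For *Ccl12* it was the highest in 4 of 5 groups, the control group being the exception. This arrangement was examined after the values were seen. In a limma model with group and slide, arrays 6 to 10 stood above the other arrays by 1.31 ± 0.15 log2 units for *Ccl8* (q = 0.000643) and by 1.93 ± 0.21 for *Ccl11* (q = 0.000601), where 2.28% of tested probes were called higher. For *Ccl11* 8 of the 15 spots entering this value were not well above background. The other 5 tested chemokines were not called, the nearest being *Ccl2* with 0.34 units (q = 0.0858).

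**Figure D3:**
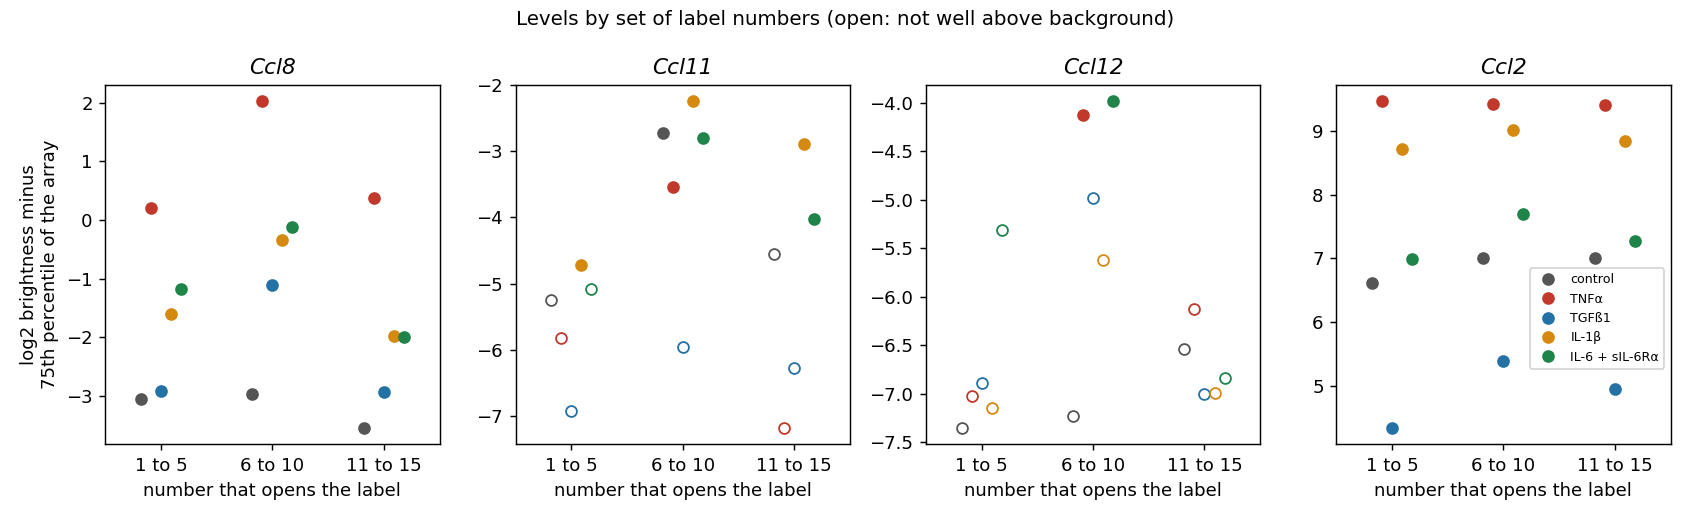
Levels of *Ccl8*, *Ccl11*, *Ccl12* and *Ccl2* (log2 brightness minus the 75th percentile of the array) by the set of label numbers, 1 point per array, coloured by group and open where the spot was not well above background. Within every group the point of the set 6 to 10 is the highest for *Ccl8* and *Ccl11*, while *Ccl2* keeps the order TNFα, IL-1β, IL-6/sIL-6Rα, control and TGFß1 in each set.

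Set against the control array of the same set, *Ccl8* was higher on every treated array. With TNFα the differences were 3.26, 4.99 and 3.92 log2 units in the sets 1 to 5, 6 to 10 and 11 to 15. With IL-1β they were 1.45, 2.62 and 1.58, and with IL-6/sIL-6Rα 1.88, 2.84 and 1.55. With TGFß1 they were 0.14, 1.85 and 0.61, so that the set 6 to 10 carried most of that difference. In a model with the slide and the set, *Ccl8* was called higher with TNFα (4.21, q = 2.35e-06), IL-1β (1.88, q = 0.00306), IL-6/sIL-6Rα (2.09, q = 0.00307) and TGFß1 (1.02, q = 0.00368). The shares of tested probes called higher in that model were 7.68%, 0.852%, 0.552% and 10.9%. With arrays 6 to 10 left out altogether, the *Ccl8* difference was 3.59 with TNFα (q = 0.00115), 1.51 with IL-1β (q = 0.247), 1.72 with IL-6/sIL-6Rα (q = 0.533) and 0.37 with TGFß1 (q = 0.390).

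*Ccl20* against the control of the same set was higher by 1.37, 1.86 and 1.74 log2 units with IL-1β. With the slide and the set in the model it was called under IL-1β (1.65, q = 0.0468). *Ccl11* was called lower with TGFß1 in that model, as were 11.8% of tested probes, but with only 1 of these 6 spots well above background its difference was not measured. *Ccl2* and *Ccl7* kept their IL-1β calls in it, with q = 0.000481 and q = 0.000443.

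The treatments were also set against each other. TNFα and TGFß1 differed most: 6 of the 7 chemokines were higher with TNFα, where 6.61% of tested probes were. *Ccl9* showed the widest gap, 4.89 ± 0.27 log2 units or 29.6-fold (q = 2.23e-07), followed by *Ccl2* with 4.54 ± 0.24 or 23.3-fold (q = 1.69e-07). *Ccl20* was 15.1-fold, *Ccl8* 9.14-fold (3.19 log2 units, and 3.80 without TGFß1 7), *Ccl7* 4.45-fold and *Ccl17* 2.77-fold higher with TNFα than with TGFß1. The *Ccl17* call was lost without TNFα 4, TNFα 14, TGFß1 2 or TGFß1 7, with q from 0.0517 to 0.0846.

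IL-1β was given at a lower concentration than TNFα, and the values are set side by side on that footing. In the fit, 3 of the 7 were lower with IL-1β than with TNFα, where 1.68% of tested probes were. *Ccl9* was 7.53-fold lower (q = 6.85e-05), *Ccl20* 4.53-fold lower (q = 0.00580) and *Ccl17* 3.05-fold lower (q = 0.0279). *Ccl17* lost this call without TNFα 4, TNFα 14, IL-1β 10 or IL-1β 15. *Ccl2* was only 0.57 log2 units lower with IL-1β than with TNFα, with a 95% CI from -1.09 to -0.05 and q = 0.216. *Ccl7* and *Ccl8* were lower by 0.67 and 2.18 units without a call (q = 0.0510 and 0.0741). With the slide in the model both were called lower (q = 0.0214 and 0.0355), as were 2.62% of tested probes. With the slide and the set in the model 6 of the 7 were lower, where 4.75% of tested probes were, *Ccl2* among them (-0.61, q = 0.0204). *Ccl11* stood the other way, higher with IL-1β than with TNFα without a call (q = 0.222). It was called higher with the slide and the set in the model, where 5.75% of tested probes were. However, *Ccl11* entered the tests only because all IL-1β arrays measured it, and only TNFα 9 of the TNFα arrays did. Its direction here is thus partly fixed by the filter and is no result.

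Against TGFß1, 5 of the 7 were called higher with IL-1β, where 10.2% of tested probes were. *Ccl2* was 15.7-fold (q = 8.89e-07), *Ccl9* 3.93-fold (q = 0.000316), *Ccl20* 3.34-fold (q = 0.00670) and *Ccl7* 2.80-fold higher (q = 0.000141). The fifth was *Ccl11*, which entered the tests only because all IL-1β arrays measured it, so that its call is partly fixed by the filter and is no result. In the model with slide and set, *Ccl8* was also called higher (0.86, q = 0.00879), where 12.3% of tested probes were.

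IL-6/sIL-6Rα was higher than TGFß1 for 3 of the 7, where 9.69% of tested probes were: *Ccl2* by 2.43, *Ccl9* by 1.99 and *Ccl7* by 0.85 log2 units. Adding slide and set as terms made 5 higher, where 11.5% of tested probes were, by the addition of *Ccl8* (1.07, q = 0.00294) and of *Ccl11*, which no TGFß1 array measured. It was lower than TNFα for 5 of the 7, where 3.45% of tested probes were, with *Ccl20* 13.5-fold, *Ccl9* 7.43-fold, *Ccl2* 4.32-fold, *Ccl17* 2.89-fold and *Ccl7* 2.47-fold lower. In the model with slide and set, *Ccl8* was also lower (-2.12, q = 0.000107), where 6.85% of tested probes were, and *Ccl11* was called higher, where 7.27% were. The fit on group means did not call *Ccl11* (q = 0.369). Only TNFα 9, IL-6 8 and IL-6 13 measured it well above background in these groups, so that its call is no result. The *Ccl17* call against TNFα was lost without TNFα 4, TNFα 14, IL-6 3 or IL-6 13. IL-1β was higher than IL-6/sIL-6Rα for 1 of the 7, *Ccl2*, where 0.252% of tested probes were. That difference was 1.54 ± 0.24 log2 units (q = 0.0144), and the call was lost without IL-1β 10, IL-1β 15, IL-6 3 or IL-6 13. Adding slide and set as terms made 3 higher, where 1.02% of tested probes were, *Ccl7* (0.64, q = 0.00697) and *Ccl20* (1.58, q = 0.0408) being added.

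The order of mean levels over the 5 groups follows from these comparisons. Steps between neighbours are given first from the fit on group means and then, where the call differs, with the slide and the set in the model. For *Ccl2* it was TNFα 9.43 ± 0.03 (SD, n = 3), IL-1β 8.86 ± 0.15, IL-6/sIL-6Rα 7.32 ± 0.36, control 6.88 ± 0.22 and TGFß1 4.89 ± 0.52. Neighbours in that order were called different between IL-1β and IL-6/sIL-6Rα and between control and TGFß1, and with the slide and the set also between TNFα and IL-1β. For *Ccl7* the order was the same, from 8.14 ± 0.21 to 5.98 ± 0.37, and no pair of neighbours was called different in the fit on group means. With the slide and the set, the *Ccl7* steps from TNFα to IL-1β (q = 0.000632) and from IL-1β to IL-6/sIL-6Rα (q = 0.00697) were. For *Ccl9* TNFα at 4.36 ± 0.20 stood above a group of control, IL-6/sIL-6Rα and IL-1β at 1.52, 1.47 and 1.45, with TGFß1 at -0.53 ± 0.50 below them, and both steps were called.

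For *Ccl20* TNFα at 1.34 ± 0.67 was called above IL-1β at -0.84 ± 0.21, and the remaining steps down to TGFß1 at -2.58 ± 0.84 were not called, except that from IL-1β to IL-6/sIL-6Rα with the slide and the set (q = 0.0408). For *Ccl17* TNFα at -1.45 ± 0.56 was called above the other groups, which lay between -2.92 and -3.12. For *Ccl8* the order was TNFα at 0.87 ± 1.01, IL-6/sIL-6Rα at -1.10 ± 0.94, IL-1β at -1.31 ± 0.85, TGFß1 at -2.32 ± 1.05 and control at -3.19 ± 0.31. No pair of *Ccl8* neighbours was called different in the fit on group means. With the slide and the set, 3 of its 4 steps were, all but that between IL-6/sIL-6Rα and IL-1β. For *Ccl11* the mean with IL-1β, the group measured above background on all its arrays, was -3.29 ± 1.28, and the other groups had too few spots above background for an order.

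Over the 15 arrays the levels of *Ccl2* and *Ccl7* had a Pearson correlation of 0.938, a description that the shared treatments and arrays enter. *Ccl11*, with 8 of its 15 spots at background, had correlations from -0.476 with *Ccl17* to 0.401 with *Ccl2*. Among all tested genes, those with the pattern closest to *Ccl2* over the 15 arrays were *Fas* (r = 0.973), the death receptor gene, *Ppm1h* (0.964) and *Cxcl1* (0.962), a neutrophil chemokine. For *Ccl7* they were *Fas* (0.965), *Relb* (0.957), an NF-κB subunit, and *Gypc* (0.949). For *Ccl9* they were *Mmp1b* (0.965), *Icam5* (0.962) and *Stx11* (0.961), and for *Ccl20* *Gch1* (0.973), *Ccl5* (0.958) and *Rsl1* (0.957). For *Ccl17* they were *Mfhas1* (0.963), *Slc39a11* (0.935) and *Tank* (0.929). For *Ccl8* they were *Adam8* (0.925), *Stambpl1* (0.906) and *Herc6* (0.893), and for *Ccl11* *Cyp2j9* (0.930), *Enpp5* (0.921) and *Selenop* (0.916).

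The other genes of the pathway were read from lists. Of 13 other CC chemokines, 4 were tested. With TNFα 1 was called higher and 1 lower, where 4.09% and 5.96% of tested probes were. With TGFß1 0 were called higher and 2 lower, where 7.51% and 10.4% were. With IL-1β 1 was called higher, where 0.228% were, and with IL-6/sIL-6Rα 0 were called. *Ccl25* and *Ccl28* were not called against control with any treatment. *Ccl5*, which draws T cells and monocytes, moved with the same treatments as *Ccl2*. *Ccl5* rose with TNFα by 8.36 log2 units (q = 1.85e-08) and with IL-1β by 2.83 (q = 0.00166), and fell by 1.27 on the log2 scale with TGFß1 (q = 0.0108). *Ccl27a* was called lower with TNFα and TGFß1, with no array of either group well above background. However, it entered the tests only through the control and IL-6/sIL-6Rα groups, so that its direction is partly fixed by the filter and is no result. Of 14 CC chemokine receptors, 1 was bright enough to be tested. This was *Ccrl2*, an atypical receptor that does not signal, which rose with TNFα by 3.86 log2 units (q = 0.000478) and was not called with the other 3 treatments. Only 1 control array measured *Ccrl2* well above background, so that the size of this rise is uncertain.

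Of 22 cytokine receptor and NF-κB pathway genes, 21 were tested. With TNFα, 12 rose and 1 fell, where 4.09% of tested probes were called higher and 5.96% lower. Those that rose included the inhibitors *Nfkbie* (3.93, q = 3.80e-08), *Tnfaip3* (3.84, q = 8.57e-09) and *Nfkbia* (2.42, q = 3.05e-06) and the subunit *Relb* (1.94, q = 1.82e-05). With IL-1β, 5 rose and 0 fell, where 0.228% of tested probes were called higher and 0.00341% lower. The 5 were *Nfkbiz* (1.49), *Tnfaip3* (1.34), *Nfkbie* (1.23), *Relb* (1.21) and *Nfkbia* (1.11). With TGFß1, 0 rose and 9 fell, where 7.51% of tested probes were called higher and 10.4% lower. Those that fell included the IL-1 receptor genes *Il1r1* (-1.21, q = 0.000305) and *Il1rap* (-1.09, q = 0.0200) and the inhibitor *Irak3* (-2.30, q = 0.000275). With IL-6/sIL-6Rα, 1 rose, *Nfkbiz* (1.35, q = 0.00474), where 0.058% of tested probes were called higher. The median difference of the 21 genes was 0.88 log2 units with TNFα, -0.44 with TGFß1, 0.36 with IL-1β and 0.12 with IL-6/sIL-6Rα, against 0.04, 0.07, 0.00 and 0.00 over all tested probes.

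**Figure D4:**
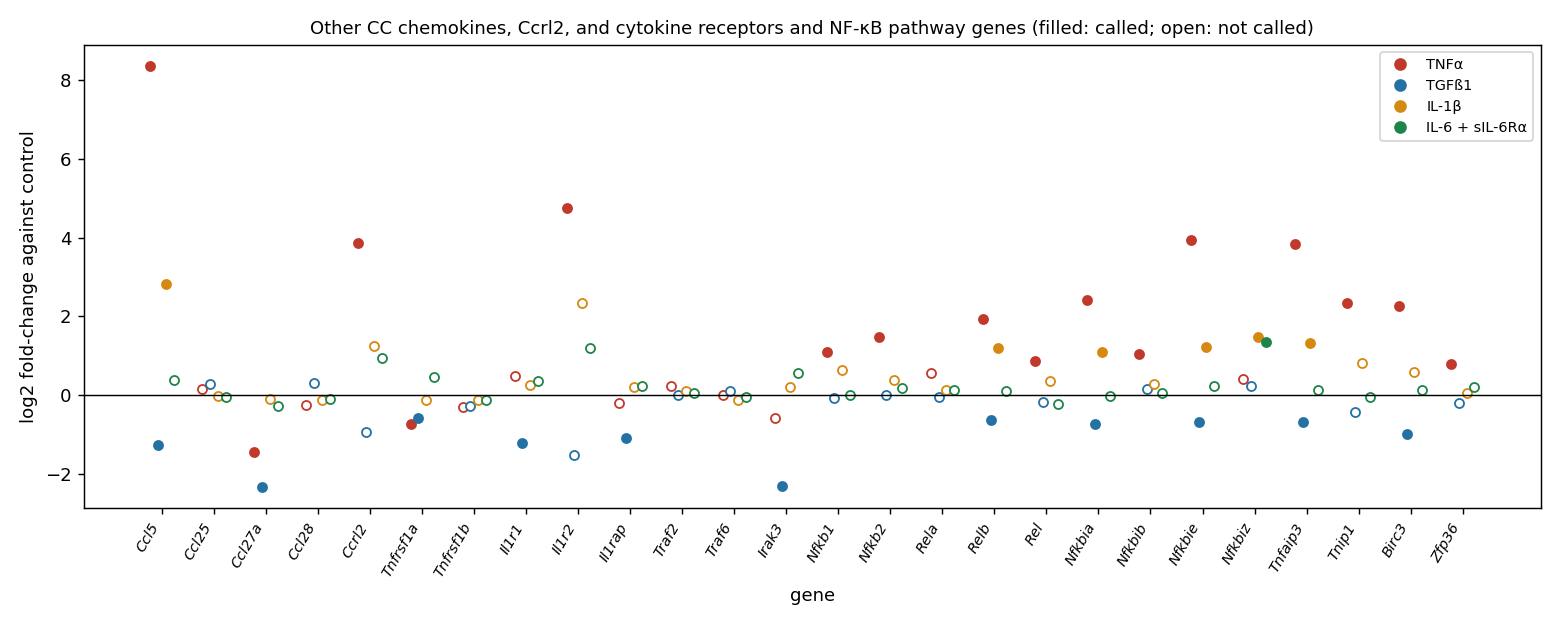
Difference in level from control (log2 units) under each treatment, with filled points for genes called higher or lower. The genes are the tested members of the lists of other CC chemokines, CC chemokine receptors, and cytokine receptors and NF-κB pathway. With TNFα 12 of 21 receptor and NF-κB pathway genes are called higher, where 4.09% of tested probes are. With TGFß1 9 of 21 are called lower, where 10.4% of tested probes are.

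Of 14 genes of the IL-6, STAT and TGFß pathways, all were tested. *Socs3*, the feedback inhibitor induced by STAT3, rose with IL-6/sIL-6Rα by 2.39 log2 units (q = 0.00157). It was the only call of the list in that group, where 0.058% of tested probes were called higher. *Smad7*, the feedback inhibitor of TGFß signalling, rose with TGFß1 by 2.02 (q = 0.00857), where 7.51% of tested probes were called higher. Of the 14, 5 fell there, where 10.4% of tested probes were called lower, among them *Il6ra* (-2.52), *Il6st* (-1.36) and *Tgfbr2* (-0.90). With TNFα, *Socs1* rose by 0.88 while *Il6ra* and *Stat3* fell by 1.24 and 1.01 on the log2 scale. With IL-1β 0 of the 14 were called by limma, where 0.228% of tested probes were called higher and 0.00341% lower.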

How the data were processed

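The authors labelled total RNA of 3T3 MEFs with Cy3, hybridised it to one-colour Agilent 8x60k mouse arrays and deposited the scanner output, whose intensity column used here is the processed signal of Agilent Feature Extraction 10.7.3.1 (version per the labels), already background-corrected. The deposited series table held the same intensities (largest difference 0).

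Spots flagged as outliers were left out, spots of a probe were averaged, and log2 of the deposited intensity minus the array's 75th percentile was taken. All 15 arrays were fitted with limma 3.58.1 in R 4.3.3 on group means. A probe entered the tests when all arrays of 1 or more groups measured it well above background. Calls needed q < 0.05 (Benjamini-Hochberg) and a 1.5-fold change. The scripts were tested on simulated data with 200 changed probes. Gene names came from RefSeq (33767 of 56605 probes). The number of arrays limits the precision.

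All 8 chemokines were named, with the called genes of each list and the 3 nearest genes of each chemokine by Pearson correlation. The chemokines and lists were chosen with earlier results of these data known.

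The 15 arrays lay on 2 slides, each scanned at 1 time, and both slides held every group. With the slide removed, the deviations of arrays in the same set of label numbers correlated at 0.114 to 0.671 in 30 of 30 pairs, and 2 of 60 pairs from different sets exceeded 0.1. Without removing the slide, 12 of 30 and 28 of 60 pairs did. Alternatives were quantile normalization, normexp background correction, no filter, the slide with or without the set as a term, fewer arrays, and within-slide values.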

Additional observations from a re-analysis of the deposited data

How the results depend on the processing

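Quantile normalization, no filter on dim probes and the 75th percentile over probes detected on all arrays (this last and the omission of arrays 6 to 10 together were chosen after seeing the data) left each count of called chemokines within 1.5 times its value, and no difference of a called chemokine changed direction under any setting. The sets of label numbers, too, were examined after the values were seen. With the slide and the set of label numbers as terms, 1 chemokine was lower with TNFα, 1 higher with TGFß1, 4 higher with IL-1β and 1 higher with IL-6/sIL-6Rα than control. The calls lower with TNFα here and higher against TNFα below are *Ccl11*, largely at background. In that model 1 was higher and 6 lower with IL-1β than TNFα, 1 higher with IL-6/sIL-6Rα than TNFα, 5 higher with IL-6/sIL-6Rα than TGFß1, and 3 higher with IL-1β than IL-6/sIL-6Rα. The shares of all tested probes stand beside these comparisons in the results. With the slide alone, 5 were lower with IL-1β than TNFα, where 2.62% of tested probes were, and with normexp also 5. Normexp moved differences of *Ccl8*, *Ccl17* and *Ccl20* by over 1.5-fold, for instance from 3.83 to 2.96 log2 units for *Ccl20* with TNFα. With only the arrays of the 2 groups compared, or without arrays 6 to 10, 1 was higher with IL-1β than control and 0 with IL-1β than IL-6/sIL-6Rα. Leaving out 1 array at a time gave 1 to 2 and 0 to 1 for these comparisons, and 5 to 6 higher with TNFα than control. No share of all tested probes is given for normexp, for fewer arrays or for 1 array left out. Those counts show only whether the calls in the results held. Fitted with only the 6 control and TNFα arrays, *Ccl17* had q = 0.0877. The percentile over detected probes moved the median of all probes by up to 0.11 log2 units. Using the mean of a gene's probes could not differ, since each gene has 1 probe. The labels give no shared replicate number, and the model with the set stands as the paired fit. Signal close to background limits *Ccl11* and *Ccl12*.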

Other observations

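The genes that stood highest in arrays 6 to 10 over the other arrays, in the model with group and slide that called *Ccl8* and *Ccl11*, were *Plac8* (3.05 log2 units, q = 0.000134), *Aldh1a1* (2.71, q = 0.000325), which encodes a retinaldehyde dehydrogenase, *Ifi44l* (2.40, q = 0.000464), *Gbp4* (2.35, q = 0.00470) and *Cyp2f2* (2.32, q = 0.00231), a cytochrome P450 gene. These were the first 5 by size, picked for their values, and what the set of numbers 6 to 10 stands for was not tested.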
